A study of Mus musculus with 8 samples.

Results

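The core enzymes of glycolysis were followed from hexokinase to lactate dehydrogenase in hematopoietic stem cells (HSCs) that had lost Mitol, 1 isoform for each step listed. The members were Hk2, Gpi1, Pfkl, Aldoa, Tpi1, Gapdh, Pgk1, Pgam1, Pkm and Ldha. They were taken by gene symbol, though the list was chosen with earlier results of these data known. They are 10 of the 22065 named genes in the count table, and 10 of 10 were among the 16444 genes tested. MITOL, encoded by Marchf5, is a ubiquitin ligase of the outer mitochondrial membrane. The study compared 4 libraries from Mitol Flox/Flox; MX1-cre+ mice, called MitolΔ/Δ, with 4 libraries from Mitol Flox/Flox; MX1-cre- littermates, called control. Both groups were C57BL/6 mice aged 8 to 10 weeks, both carried the floxed Mitol alleles, and both were injected with Poly:IC, which switches on the interferon-responsive MX1 promoter that drives Cre. The comparison is therefore between Cre carriers and non-carriers after the same interferon stimulus, and Cre under this promoter acts in other blood cells and in some other tissues as well as in HSCs. Each library came from 100 bone marrow cells sorted as CD150+ CD48- EPCR+ Lineage- at 1 week after Poly:IC, and was read as bulk RNA-seq. The labels number the libraries of each group but do not tie them to separate animals, so the p-values measure the spread between these libraries.

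Glycolysis splits glucose into pyruvate in the cytosol. Its first steps spend ATP to make phosphorylated sugars, its later steps return ATP and reduce NAD+ to NADH, and lactate dehydrogenase turns pyruvate into lactate while restoring NAD+. Quiescent HSCs of the bone marrow are known to rely on glycolysis more than on respiration, and dividing cells of many kinds carry more of these enzymes. Several steps have more than 1 isoform, encoded by separate genes and used in different tissues.

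Messenger RNA for enzymes at both ends of the pathway was higher in MitolΔ/Δ HSCs, and Gpi1, Pfkl and Aldoa, between them, had the 3 smallest differences. Of the 10 enzymes, 5 were past the threshold and higher in MitolΔ/Δ HSCs, namely Hk2, Gapdh, Pgam1, Pkm and Ldha, and 0 were lower. The threshold was a Benjamini-Hochberg adjusted p-value under 0.05 in edgeR's quasi-likelihood test, adjusted across every gene tested, of which 4.68% were called higher, 3.75% lower and 8.43% in either direction. The same 5 enzymes had groups that did not overlap, every MitolΔ/Δ library lying above every control library, against 8.17% of all genes (7.18% of all genes had groups apart in the other direction). With the Wald test of DESeq2, 6 enzymes were called higher, Tpi1 being added. Of all 22065 named genes DESeq2 called 6.12% higher, a share that counts genes left without an adjusted p-value as not called. By DESeq2 and limma-voom too, 0 enzymes were lower, and at an unadjusted p-value under 0.05 by edgeR 8 were higher and 0 lower. The share of all genes at this looser cut was not worked out. Counts at an unadjusted p-value, here and below, therefore have no background beside them and say nothing particular about a list. The log2 fold change, MitolΔ/Δ over control, was positive for 9 of 10 enzymes. Its median over the 10 was 0.49, beside -0.02 over all genes tested. In all, the 10 genes took 0.271% to 0.324% of the counts of a MitolΔ/Δ library and 0.208% to 0.241% of a control library, so the groups did not overlap in this share either. Because these are bulk samples, fewer cells of a type and less RNA per cell cannot be told apart.

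Counts on named genes summed to between 7214935 and 12398138 per library, and a single enzyme had between 116 raw counts, for Pgk1, and 8854, for Ldha. All 8 HSC marker genes that were checked were present in every library, among them Procr, which encodes the EPCR of the sorting gate, and Slamf1, which encodes CD150. Among those called lower in MitolΔ/Δ HSCs were Kit and Hlf, with log2 fold changes of -0.75 and -0.79 (edgeR quasi-likelihood test, adjusted p = 0.00705 and 0.00381). The targeted gene Marchf5 had 232 to 308 normalized counts in MitolΔ/Δ libraries and 262 to 333 in control libraries, so its total count did not separate the groups (log2 fold change -0.15, adjusted p = 0.498 by the same test). Counts summed over a gene do not tell deleted exons from remaining ones. Of all genes tested, 770 were called higher and 616 lower, a split that became 594 and 845 with upper-quartile factors and 602 and 829 with total counts as the sole scaling. Under each of those scalings the same 5 enzymes were called higher.

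The 250 bases before the start of the canonical transcript are shown for the 5 enzymes that were called and for Aldoa, whose log2 fold change was the lowest of the 10. They come from the GRCm39 genome with GENCODE vM39 starts and read 5' to 3' on the strand of the gene. Capitals mark ACGTG, the core of the element bound by hypoxia-inducible factors, and GCGTG, its other common form, each searched on both strands, so that CACGT and CACGC mark matches on the opposite strand. CACGTG, the E-box bound by MYC and related proteins, contains ACGTG and counts once for it on each strand.
Hk2, chr6:82751453-82751702, minus strand: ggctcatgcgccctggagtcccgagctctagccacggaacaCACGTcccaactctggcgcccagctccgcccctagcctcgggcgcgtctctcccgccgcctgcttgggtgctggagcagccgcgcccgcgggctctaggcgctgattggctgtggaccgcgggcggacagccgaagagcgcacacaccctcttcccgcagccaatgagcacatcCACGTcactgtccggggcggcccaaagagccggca
Aldoa, chr7:126398427-126398676, minus strand: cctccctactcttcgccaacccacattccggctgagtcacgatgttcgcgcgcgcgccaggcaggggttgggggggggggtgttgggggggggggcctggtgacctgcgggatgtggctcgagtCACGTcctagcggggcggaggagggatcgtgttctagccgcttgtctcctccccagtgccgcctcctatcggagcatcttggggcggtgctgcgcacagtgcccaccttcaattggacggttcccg
Gapdh, chr6:125142737-125142986, minus strand: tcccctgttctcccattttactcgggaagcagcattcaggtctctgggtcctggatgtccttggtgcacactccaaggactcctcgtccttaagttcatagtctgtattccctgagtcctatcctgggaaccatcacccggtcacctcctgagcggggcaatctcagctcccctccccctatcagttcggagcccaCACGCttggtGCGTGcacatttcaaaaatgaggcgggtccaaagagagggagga
Pgam1, chr19:41900091-41900340, plus strand: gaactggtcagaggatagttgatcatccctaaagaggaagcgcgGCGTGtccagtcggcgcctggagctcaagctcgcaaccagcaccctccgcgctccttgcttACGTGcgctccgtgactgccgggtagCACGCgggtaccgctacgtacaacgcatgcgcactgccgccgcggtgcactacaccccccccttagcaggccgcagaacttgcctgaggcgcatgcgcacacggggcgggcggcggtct
Pkm, chr9:59563385-59563634, plus strand: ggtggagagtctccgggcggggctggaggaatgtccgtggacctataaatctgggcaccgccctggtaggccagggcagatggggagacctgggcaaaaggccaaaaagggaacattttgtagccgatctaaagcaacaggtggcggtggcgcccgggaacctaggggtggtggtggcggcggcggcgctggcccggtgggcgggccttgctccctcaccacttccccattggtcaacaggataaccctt
Ldha, chr7:46495013-46495262, plus strand: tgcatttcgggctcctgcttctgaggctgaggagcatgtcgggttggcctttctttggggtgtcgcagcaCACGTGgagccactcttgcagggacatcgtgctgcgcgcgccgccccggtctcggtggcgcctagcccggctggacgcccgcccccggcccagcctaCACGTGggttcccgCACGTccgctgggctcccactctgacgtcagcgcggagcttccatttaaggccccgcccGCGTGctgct

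ACGTG was present in 5 of 10 enzyme windows, those of Hk2, Aldoa, Pgk1, Pgam1 and Ldha, and in 17.0% of 21722 windows of the same length. These windows were those of protein-coding genes with a single canonical transcript on a numbered or sex chromosome, 1 for each gene. GCGTG was present in 3 of 10, those of Gapdh, Pgam1 and Ldha, and in 31.2% of all windows. Either of these was present in 6 of 10 windows and in 41.3% of all. The Ldha window held 2 CACGTG, which no other enzyme window had and which 6.27% of all windows hold. The Pkm window held neither ACGTG nor GCGTG, and the Aldoa window held 1 ACGTG. These are letter matches in a fixed window, and binding was not measured. The windows of all genes were not matched to those of the enzymes for GC content. That content ran from 41.6% for Pfkl to 70.4% for Hk2 among the 10.

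Hk2, on the minus strand of chromosome 6 at 82699740 to 82751469 with 18 exons, encodes the hexokinase that phosphorylates glucose on entry and can sit on the outer mitochondrial membrane. Its normalized counts, which are counts divided by the DESeq2 size factor of the library, were 2206, 1513, 2742 and 2054 in MitolΔ/Δ replicates 1 to 4 and 1149, 1339.6, 1100.2 and 660.0 in control replicates 1 to 4. Every MitolΔ/Δ library was above every control library, with the narrowest gap between MitolΔ/Δ replicate 2 and control replicate 2. The means were 2128 ± 505 and 1062 ± 287 (SD, n = 4), a log2 fold change of 0.99 (standard error 0.21, 95% interval 0.54 to 1.44, adjusted p = 0.0183 by edgeR), the largest of the 10.

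The next enzymes showed smaller differences. Gpi1, on chromosome 7 at 33900755 to 33929780, interconverts the phosphates of glucose and fructose. It had 4206, 4043, 3705 and 3802 normalized counts in MitolΔ/Δ libraries and 3732, 3303, 3490.0 and 2937 in control libraries. Only MitolΔ/Δ replicate 3 fell within the control range, and the log2 fold change of 0.21 (standard error 0.087) was not past the threshold (edgeR, adjusted p = 0.151). Pfkl, on chromosome 10 at 77818084 to 77845922, encodes the liver-type phosphofructokinase, the committed step of the pathway. Its normalized counts were 1656, 1823, 1629 and 1527 in MitolΔ/Δ libraries and 1688, 1464, 1552 and 1343 in control libraries. The groups overlapped widely, with a log2 fold change of 0.12 and a 95% interval of -0.08 to 0.32 (edgeR, adjusted p = 0.455). Aldoa, on chromosome 7 at 126393822 to 126399923, encodes the aldolase that splits the phosphorylated sugar into triose phosphates. It had 3237, 3553, 3537 and 3419 normalized counts in MitolΔ/Δ libraries and 4187, 3376, 3477 and 3342 in control libraries. Control replicate 1 was the highest of the 8 and the other control libraries lay among the MitolΔ/Δ ones. The log2 fold change was -0.08 with a 95% interval of -0.28 to 0.11 (edgeR, adjusted p = 0.596), and it was 0.01 (adjusted p = 0.945) without control replicate 1.

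**Figure D1:**
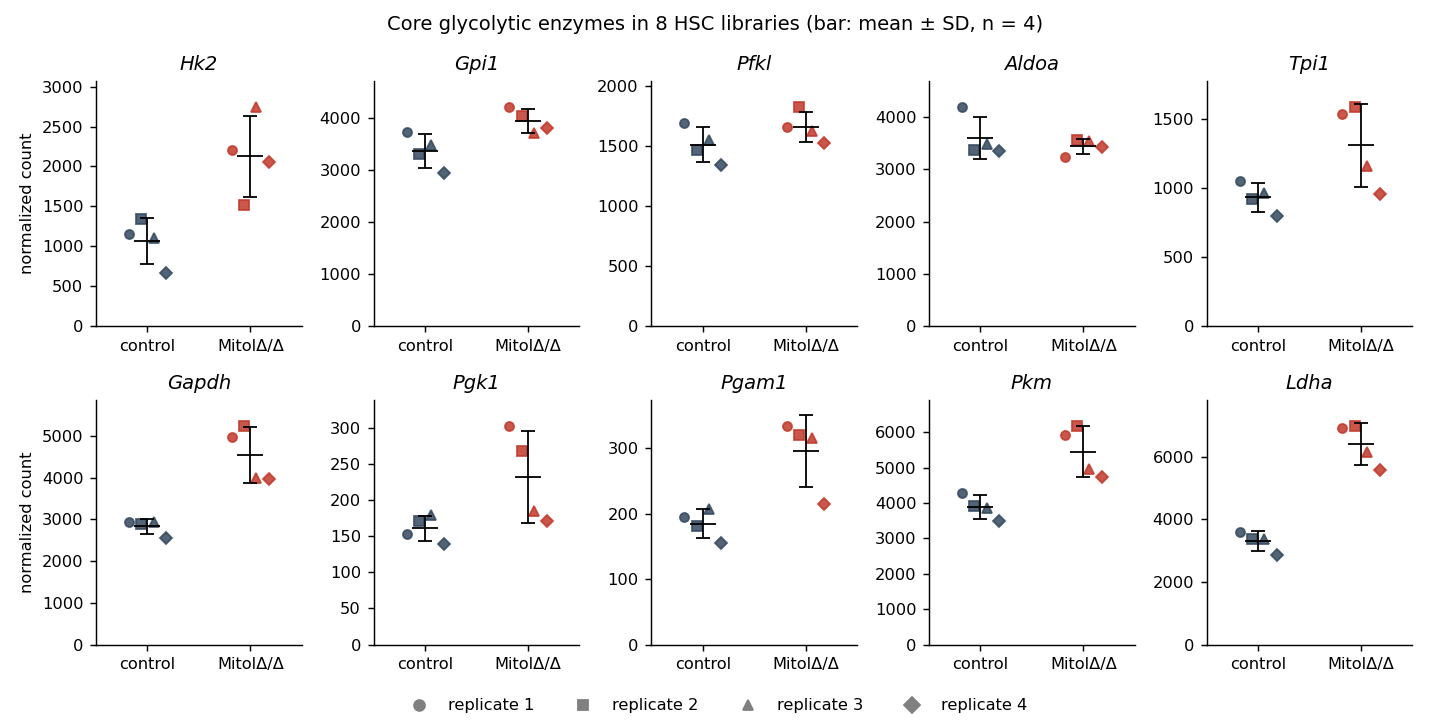
Normalized counts (y axis, linear from 0) of the 10 glycolytic enzymes in control and MitolΔ/Δ HSCs. Each point is 1 library, its shape gives the replicate number, and bars are the mean ± SD of 4 libraries. For Hk2, Gapdh, Pgam1, Pkm and Ldha every MitolΔ/Δ point lies above every control point, and for the other 5 enzymes the groups overlap.

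From triosephosphate isomerase on, the enzymes handle triose units. Tpi1, on chromosome 6 at 124787549 to 124791273, interconverts the triose phosphates that aldolase makes. Its normalized counts were 1537, 1587, 1159.8 and 955 in MitolΔ/Δ libraries and 1054, 918, 964 and 796 in control libraries. MitolΔ/Δ replicates 1 and 2 stood well above the others and replicate 4 lay inside the control range. The log2 fold change of 0.47 (standard error 0.15) was not past the threshold (edgeR, adjusted p = 0.0702), but it was with the Wald test of DESeq2 (adjusted p = 0.0284) and without MitolΔ/Δ replicate 4 (edgeR, 0.62, adjusted p = 0.00815).

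Gapdh, on chromosome 6 at 125135289 to 125143518, encodes the dehydrogenase that oxidizes glyceraldehyde phosphate and makes NADH. It had 4969, 5243, 3982 and 3973 normalized counts in MitolΔ/Δ libraries against 2939.6, 2892, 2946 and 2561 in control libraries. The groups were wide apart, at 4542 ± 661 and 2835 ± 184 (SD, n = 4). On the log2 scale the fold change was 0.66 (standard error 0.10, 95% interval 0.44 to 0.88, adjusted p = 0.00582 by edgeR). Gapdh is often used as a reference gene for scaling, and in these libraries its level was not equal between the groups.

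Pgk1, on chromosome X at 105230706 to 105247305, encodes phosphoglycerate kinase, the first enzyme of the pathway to return ATP. Its normalized counts were 304, 268, 186 and 171 in MitolΔ/Δ libraries and 153, 171, 179.9 and 140.1 in control libraries. As for Tpi1, replicates 1 and 2 of MitolΔ/Δ stood apart and replicate 4 lay within the control range. The log2 fold change was 0.51 (standard error 0.19, adjusted p = 0.118 by edgeR), and 0.65 (adjusted p = 0.0348) without MitolΔ/Δ replicate 4. Pgam1, on chromosome 19 at 41900341 to 41907104, encodes the phosphoglycerate mutase that moves the phosphate within the molecule. It had 334, 320.1, 315 and 215 normalized counts in MitolΔ/Δ libraries and 195, 181, 207 and 155 in control libraries. MitolΔ/Δ replicate 4 was far below the other MitolΔ/Δ libraries yet above every control library. The log2 fold change of 0.66 (standard error 0.16, 95% interval 0.31 to 1.02) was past the threshold (edgeR, adjusted p = 0.0306). Over 8 fits that each left out 1 library, its adjusted p-value ran from 0.00438 to 0.0863, and it missed the threshold without MitolΔ/Δ replicate 1, 2 or 3 or control replicate 2 or 4.

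Pkm, on chromosome 9 at 59563364 to 59586663, encodes the muscle-type pyruvate kinase, the second enzyme to return ATP, in splice forms that counts per gene do not separate. Its normalized counts were 5931, 6181, 4969.8 and 4727 in MitolΔ/Δ libraries and 4290.0, 3907, 3866 and 3488 in control libraries. The groups did not overlap, at 5452 ± 711 and 3888 ± 328 (SD, n = 4). This gave a log2 fold change of 0.47 (standard error 0.10, 95% interval 0.25 to 0.69, adjusted p = 0.0195 by edgeR). With 1 library left out, its adjusted p-value ran from 0.00462 to 0.0608, missing the threshold without MitolΔ/Δ replicate 1 or 2 or control replicate 2 or 4.

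Ldha, on chromosome 7 at 46490899 to 46505061, encodes the A subunit of lactate dehydrogenase. The window with 2 CACGTG precedes its canonical transcript and lies inside this span. It had 6929.8, 6991, 6168 and 5592 normalized counts in MitolΔ/Δ libraries and 3589.8, 3379, 3379 and 2858 in control libraries. The lowest MitolΔ/Δ library was far above the highest control library. The means were 6420.2 ± 667 and 3301 ± 312 (SD, n = 4), and the log2 fold change was 0.94 (standard error 0.097, 95% interval 0.73 to 1.15, adjusted p = 0.00134 by edgeR). Ldha, Hk2 and Gapdh were called in 8 of 8 fits that left out 1 library, with log2 fold changes of 0.88 to 1.02, 0.82 to 1.13 and 0.59 to 0.74. Their adjusted p-values by edgeR ran from 0.000362 to 0.00943, 0.00998 to 0.0499 and 0.00192 to 0.0252, so Hk2 came close to the threshold.

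**Figure D2:**
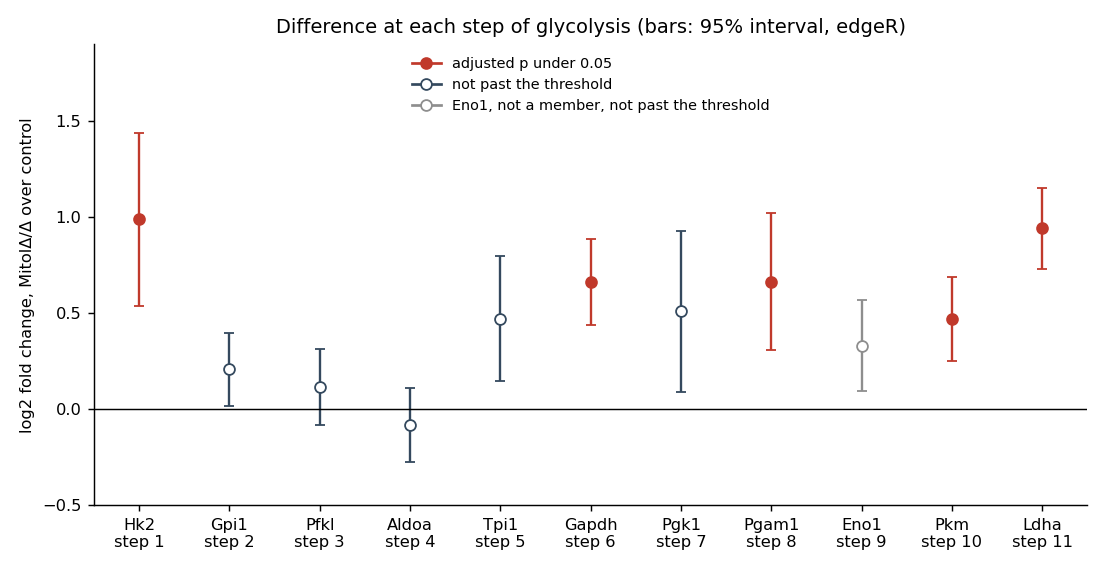
Log2 fold change, MitolΔ/Δ over control (y axis), at each step of glycolysis in pathway order (x axis), with 95% intervals from edgeR. Filled points passed an adjusted p-value under 0.05. Values are highest for Hk2 (0.99) and Ldha (0.94), lowest for Aldoa (-0.08), and Eno1, in grey and not 1 of the 10 enzymes, stands at 0.33.

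Enolase, the step between Pgam1 and Pkm, is not among the 10. Its main gene Eno1 had 1307, 1396, 1207 and 1021 normalized counts in MitolΔ/Δ libraries and 1052, 989, 989 and 843 in control libraries. It was shifted the same way as its neighbours but was not past the threshold (log2 fold change 0.33, standard error 0.11, adjusted p = 0.0774 by edgeR).

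Several enzymes ranked the libraries alike. MitolΔ/Δ replicates 1 and 2 were both above replicates 3 and 4 for 8 of 10 enzymes, the exceptions being Hk2 and Aldoa. MitolΔ/Δ replicate 4 was the lowest of its group for 7 of 10 enzymes and control replicate 4 the lowest of its group for 10 of 10. Hk2 had its highest MitolΔ/Δ value in replicate 3. The number of enzymes called was 3, namely Hk2, Gapdh and Ldha, without MitolΔ/Δ replicate 1 or 2 or control replicate 2 or 4. In those fits 1.84%, 1.43%, 0.995% and 1.6% of all genes tested were called higher, in that order, beside 4.68% with all libraries. With MitolΔ/Δ replicate 4 left out 7 enzymes were called, Tpi1 and Pgk1 being added to those of the full fit, and 8.77% of all genes. The number of enzymes called thus moved with the number of all genes called.

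Levels were compared between genes as normalized counts per kilobase of the canonical transcript. In control HSCs the order of mean levels was Aldoa (2380 ± 264), Ldha (2079 ± 197), Gapdh (1996 ± 129), Pkm (1588 ± 134), Gpi1 (1159 ± 115), Tpi1 (580.5 ± 66.8), Pfkl (369 ± 35.4), Hk2 (136 ± 36.9), Pgam1 (103 ± 12.4) and Pgk1 (88.3 ± 9.83). Among neighbours in that order, Aldoa and Ldha overlapped between control libraries, as did Ldha and Gapdh, Hk2 and Pgam1, and Pgam1 and Pgk1. The other neighbours were separate. In MitolΔ/Δ HSCs Ldha was first at 4043 ± 420.2, then Gapdh at 3199 ± 466 and Aldoa at 2274 ± 96.4, and the other 7 enzymes held their places. Hk2, the enzyme with the largest log2 fold change, was thus among the 3 lowest in level in both groups.

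The counting of several enzymes is uncertain because the mouse genome holds processed copies of their transcripts. Of all 75-base windows of the Gapdh transcript, the length of a read, 85.4% occur letter for letter at other places of GRCm39, 121 in number. For Pgk1 the share was 91.4% (4 places), for Pgam1 90.6% (5 places) and for Eno1 57.6%. These are the enzymes whose reads a counter may discard or divide, and Pgk1 and Pgam1 had the lowest levels of the 10. The share was 0% for Hk2 and Pfkl, 1.53% for Aldoa, 9.31% for Ldha, 12.5% for Tpi1, 13.6% for Gpi1 and 23.0% for Pkm. The largest log2 fold changes, those of Hk2 and Ldha, were thus of genes with few or no such windows. How reads with several matches were counted is not given in the sources used here, so the levels of Gapdh, Pgk1 and Pgam1, and the differences drawn from them, are uncertain. A second row for Aldoa held 23 to 78 raw counts per library, beside 3173 to 4136 in the first, and adding it changed no call among the 10.

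**Figure D3:**
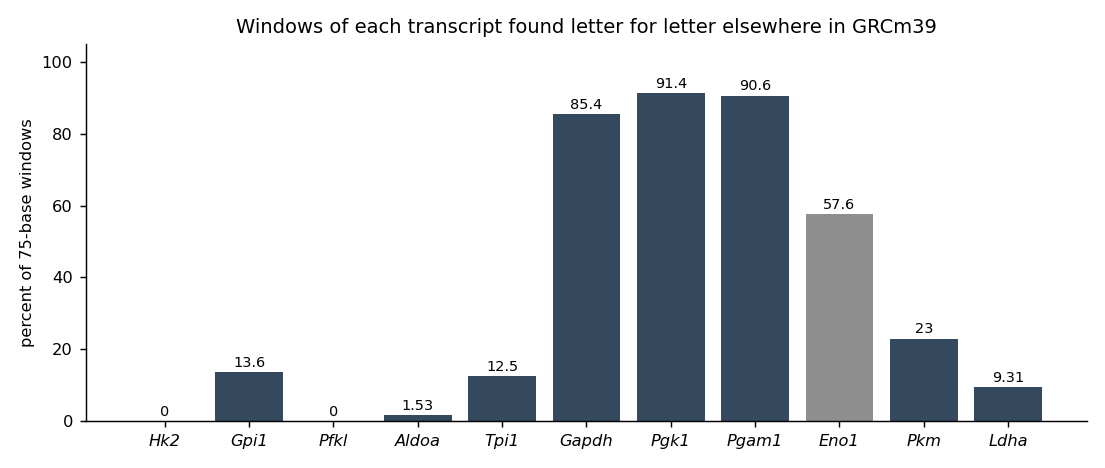
Share of 75-base windows of each canonical transcript that occur letter for letter elsewhere in GRCm39 (y axis, percent), in pathway order with Eno1 in grey. The shares are 85.4% for Gapdh, 91.4% for Pgk1 and 90.6% for Pgam1, against 0% for Hk2 and 9.31% for Ldha.

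For 5 steps with several isoforms, the share of the reads of the family that fell on the member was compared, a measure in which the scaling of the library cancels. Hk2 took 41.9%, 32.8%, 44.2% and 36.2% of the reads of Hk1, Hk2 and Hk3 in MitolΔ/Δ libraries and 26.1%, 31.3%, 29.3% and 20.6% in control libraries. The groups did not overlap, at 38.8% ± 5.23 and 26.8% ± 4.67 (p = 0.0286 by a 2-sided exact permutation test, and 0.0714 after adjustment for 5 families). Ldha took 93.4%, 93.5%, 92.3% and 90.0% of the reads of Ldha and Ldhb in MitolΔ/Δ libraries and 85.6%, 86.1%, 87.3% and 84.2% in control libraries. Here too the groups were apart, at 92.3% ± 1.64 and 85.8% ± 1.3 (2-sided exact permutation test, p = 0.0286, 0.0714 adjusted). The smallest p that 4 libraries against 4 allow is 0.0286, and after adjustment neither share was past 0.05. The Pgam1 share was 86.2% ± 7.0 in MitolΔ/Δ and 74.0% ± 3.66 in control libraries, with MitolΔ/Δ replicate 4 inside the control range (2-sided exact permutation test, p = 0.0857, 0.107 adjusted). The Aldoa share was 96.8% and 95.2% (p = 0.0857, 0.107 adjusted, same exact test) and the Pfkl share 51.7% and 48.8% (p = 0.200, same exact test), both with overlapping groups. Pgam1 reads carry the uncertainty given above, which Pgam2, with 0% of such windows, does not share.

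Of 12 tested isoforms and enolases that are not among the 10, 0 passed the threshold by edgeR or limma-voom, and 3, Hk1, Aldoc and Eno1, had an unadjusted p-value under 0.05. With other settings some did pass, Aldoc with upper-quartile factors, total counts or DESeq2, Eno1 with DESeq2 or without MitolΔ/Δ replicate 4, and Hk1 without control replicate 1. Hk1, the widely expressed hexokinase, had 2764 ± 161 normalized counts in MitolΔ/Δ and 2216 ± 349 in control libraries (log2 fold change 0.30, adjusted p = 0.102 by edgeR). The means of Hk2 were 2128 and 1062, so Hk1 rather than Hk2 had the most hexokinase reads in both groups. Ldhb, the other main lactate dehydrogenase subunit, had 528 ± 64.4 and 544 ± 46.9 (log2 fold change -0.06, 95% interval -0.31 to 0.19, adjusted p = 0.782). The brain-type aldolase Aldoc had 112 ± 23.1 and 179.9 ± 42.2 (log2 fold change -0.70, adjusted p = 0.0565), and the muscle-type mutase Pgam2 had 45.5 ± 17.5 and 64.6 ± 10.6 (log2 fold change -0.52, adjusted p = 0.289). Hk3, Pfkm and Pfkp had log2 fold changes of -0.23, 0.04 and -0.13 with adjusted p-values of 0.477, 0.848 and 0.529.

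**Figure D4:**
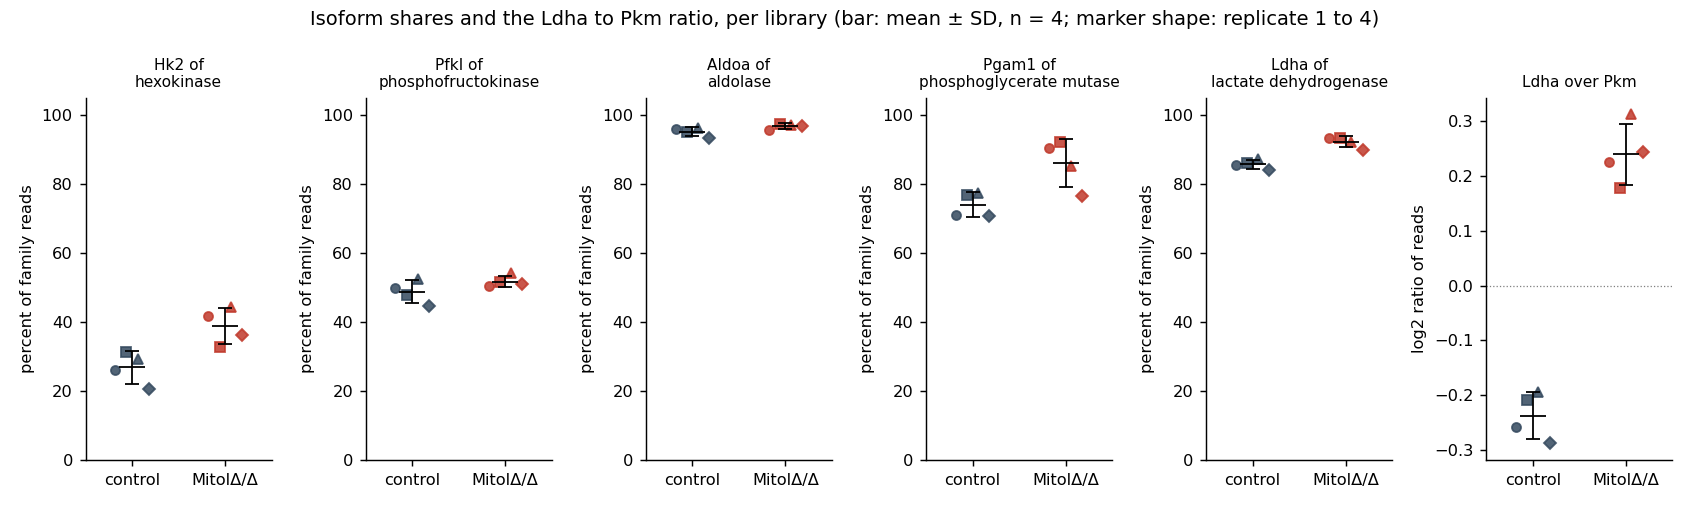
Share of a family's reads on the member enzyme (first 5 panels, percent) and log2 ratio of Ldha to Pkm reads (last panel) in control and MitolΔ/Δ libraries, 1 point per library with mean ± SD. The groups are apart for Hk2 (38.8% and 26.8%), for Ldha (92.3% and 85.8%) and for the ratio (0.24 and -0.24), and overlap for Pfkl, Aldoa and Pgam1.

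The ratio of each enzyme to the one before it, computed within a library, shows where along the pathway the difference was uneven. Of 9 such pairs, 3 had groups that did not overlap. The log2 ratio of Ldha to Pkm reads was 0.22, 0.18, 0.31 and 0.24 in MitolΔ/Δ libraries and -0.26, -0.21, -0.19 and -0.29 in control libraries. Ldha thus had more reads than Pkm in every MitolΔ/Δ library and fewer in every control library, a difference of 0.48 (p = 0.0286 by a 2-sided exact permutation test, and 0.0857 after adjustment for 9 pairs). Tpi1 to Aldoa differed by 0.53 and Gapdh to Tpi1 by 0.20, with the same raw and adjusted p-values of the exact permutation test. Gpi1 to Hk2 differed by -0.79 and Aldoa to Pfkl by -0.20 (both p = 0.0571, 0.103 adjusted, exact permutation test), with groups that overlapped. The other 4 pairs had p-values of 0.114 to 0.314 by this test. These pairs were compared after the values had been seen, and no adjusted p-value was under 0.05.

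The genes around the pathway were taken as 7 lists of 85 genes, of which 75 were tested. By edgeR 4 of these were called higher and 1 lower, beside 4.68% and 3.75% of all genes. For 75 genes these counts are close to what the shares of all genes would give. The genes below are described singly and are not a result about the lists. Slc16a1, the monocarboxylate transporter that carries lactate and pyruvate across the cell membrane, had 795, 1052, 724 and 500.4 normalized counts in MitolΔ/Δ libraries and 549.9, 402, 332 and 448 in control libraries. MitolΔ/Δ replicate 4 lay within the control range (log2 fold change 0.81, standard error 0.20, adjusted p = 0.0332). Mdh2, the mitochondrial malate dehydrogenase of the malate-aspartate shuttle, had 2347 ± 380.2 and 1576 ± 227 with groups apart (log2 fold change 0.56, adjusted p = 0.0242). Pgp, which removes toxic by-products of glycolytic enzymes, had 445 ± 98.7 and 279.8 ± 38.0 with groups apart (log2 fold change 0.65, adjusted p = 0.0326). Fbp1, which runs the phosphofructokinase step backwards in gluconeogenesis, was the one called lower, with 29.3 ± 7.23 and 69.3 ± 24.8 and control replicate 1 inside the MitolΔ/Δ range (log2 fold change -1.26, adjusted p = 0.0343). Bhlhe40, a transcription factor gene listed as a hypoxia-inducible target, had 435 ± 192 and 170.0 ± 52.9 with groups apart (log2 fold change 1.34, adjusted p = 0.0270). The number of these genes called was 0 without control replicate 2 or 4, 1 without control replicate 3 or MitolΔ/Δ replicate 1, 2 or 3, 9 without MitolΔ/Δ replicate 4 and 10 without control replicate 1. All genes called, in either direction, were 1386 with all libraries. They were 359 and 510 without control replicate 2 and 4, and 811 without control replicate 3. Without MitolΔ/Δ replicates 1, 2 and 3 they were 565, 492 and 520. Without MitolΔ/Δ replicate 4 they were 2501, and without control replicate 1 they were 1319.

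The lists differed from the 10 enzymes in their medians. The median log2 fold change was -0.09 over 12 tested isoforms and enolases, 0.12 over 8 bifunctional and opposing enzymes and 0.25 over 7 enzymes of the pentose phosphate pathway, which branches off after hexokinase and of which 0 were called by edgeR, DESeq2 or limma-voom and 2 had an unadjusted p-value under 0.05 by edgeR. It was 0.17 over 13 genes of entry and exit, where the glucose transporter Slc2a1 stood at 0.21 (adjusted p = 0.196), and 0.30 over 10 genes of the NADH and glycerol shuttles. Of 11 tested regulators 0 were called by edgeR, DESeq2 or limma-voom, 3 had an unadjusted p-value under 0.05 by edgeR, and the median was 0.07. Among them, Hif1a, Epas1 and Arnt had log2 fold changes of 0.16, 0.11 and -0.03 (adjusted p = 0.520, 0.915 and 0.846 by edgeR). Myc, Mycn and Max had log2 fold changes of -0.22, 0.31 and -0.33 (adjusted p = 0.367, 0.112 and 0.106 by edgeR). Over 14 targets of hypoxia-inducible factors outside glycolysis the median was 0.01 and 1, Bhlhe40, was called.

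**Figure D5:**
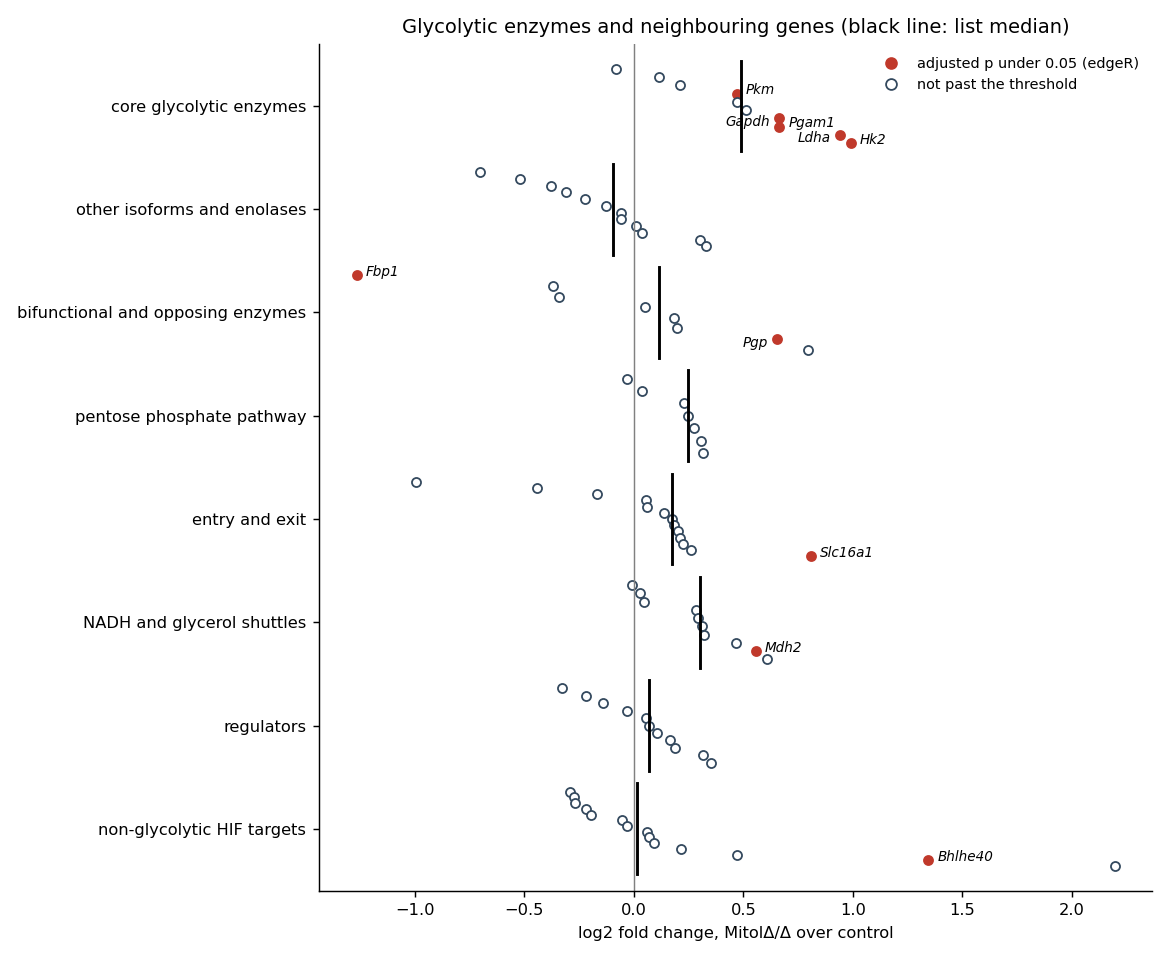
Log2 fold change, MitolΔ/Δ over control (x axis), for each tested gene of the 10 core enzymes and of 7 lists around them. Filled points passed an adjusted p-value under 0.05 by edgeR and black lines are list medians, at 0.49 for the core enzymes and between -0.09 and 0.30 for the other lists.

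Genes of dividing cells moved with the same groups. Of 15 such genes, among them Mki67 and Top2a, 15 were called higher in MitolΔ/Δ HSCs by edgeR, with a median log2 fold change of 1.57. Their summed normalized counts were 15906, 15145, 12599.8 and 7689 in MitolΔ/Δ libraries and 3464, 3340.1, 7513 and 5390.0 in control libraries. MitolΔ/Δ replicates 1 and 2, highest here, also held the highest value of their group for 9 of 10 glycolytic enzymes, and replicate 4, lowest here, held the lowest for 7 of 10. In the control group replicate 3 led the dividing-cell sum, and replicate 1 led 6 of 10 enzymes. The part of these genes in the difference of the enzymes was not tested. Among 7 tested red-cell genes 2 were called higher, Gata1 (log2 fold change 3.30, adjusted p = 0.00381) and Hbb-bt (1.29, adjusted p = 0.0442). Of the 7, 6 had a positive log2 fold change, the exception being Car2 (-0.22, adjusted p = 0.316 by edgeR). The summed level of all 11 was 5363 to 7569 in MitolΔ/Δ and 4806 to 6495 in control libraries. Car2 was the largest part of that sum, at 3631 to 4550 in MitolΔ/Δ and 3885 to 6021 in control libraries. Of 4 megakaryocyte genes tested 1, Pf4, was called lower (log2 fold change -1.69, adjusted p = 0.0202). Markers of other cells were mostly too low to test. Of the 5 tested macrophage markers 5 had a positive log2 fold change, with a median of 0.68, and 0 passed the threshold by edgeR. Vcam1 was the nearest to it (log2 fold change 1.6, adjusted p = 0.0558) and was called higher by DESeq2. The summed normalized counts of the macrophage list did not overlap between the groups, at 329.5 to 455 in MitolΔ/Δ and 186 to 324 in control libraries. Of 2 tested neutrophil genes 0 passed by edgeR, while DESeq2 called Prtn3 higher (edgeR log2 fold change 0.76, adjusted p = 0.0674) and S100a8, untested by edgeR, lower. For B-lineage, T-cell and mast-cell markers 1 gene each was tested, and 0 were called by edgeR, DESeq2 or limma-voom or had an unadjusted p-value under 0.05. The part of these cell types in the difference of the enzymes was not tested.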

How the data were processed

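The 8 RNA-seq libraries were each made from 100 sorted HSCs. Per the methods and processing notes of the submitters, single-end reads of 75 bases were aligned to mm39 with STAR, alignments were merged with SAMtools, and reads were counted per gene with Subread. The deposited counts are raw counts, not normalized. The annotation, the strand setting and the treatment of reads with several matches are not given in the sources used here. Of 23094 rows, each with at least 11 counts, 1029 had no symbol (0.335% to 0.467% of counts) and were left out.

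All 16444 genes passing the default filter were tested by quasi-likelihood in edgeR (version 4.0.16, R version 4.3.3), with TMM normalization, condition as the sole term and Benjamini-Hochberg adjustment. Normalized counts used size factors of DESeq2 (version 1.42.0). Alternatives were other scalings and filters, DESeq2, limma-voom (version 3.58.1), robust dispersions, the replicate number as a block, and each library left out. The fit was tested on simulated data. Isoform shares and ratios were compared by 2-sided exact permutation tests. Positions, promoter windows and 75-base windows came from GRCm39 and GENCODE vM39.

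The 10 members and all lists were chosen with earlier results of these data known. The genes named are the members, isoforms of 5 families, listed pathway and marker genes past the threshold or at 0, and Marchf5. Eno1, Procr, Slamf1, Slc2a1, Vcam1, Car2, Prtn3, S100a8, Hif1a, Epas1, Arnt, Myc, Mycn and Max were named in addition, after their values were seen. The ratios of neighbouring steps and the summing of the 2 Aldoa rows were also added after the data were seen. Precision is limited by the 8 libraries and the 100 cells in each, and the counts are of reads, which can be PCR copies of 1 molecule. Some listed marker genes are not reported here.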

Additional observations from a re-analysis of the deposited data

Results flagged for a closer look

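In 3 of 58 groups of 4 libraries, 1 library lay far from the other 3, past Dixon's 95% critical value for the gap as a share of the range. Chance flags about 1 in 20 groups. Aldoa had 4187 normalized counts in control replicate 1, and 3342 to 3477 in the other control libraries. Gapdh had 2561 in control replicate 4, and 2892 to 2946 in the others. Pgam1 had 215 in MitolΔ/Δ replicate 4, and 315 to 334 in the others, and this library remained above every control library.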

How the results depend on the processing

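Over 10 other full-library settings (scaling, filter, tool, dispersion, block, Aldoa rows), Hk2, Gapdh, Pgam1, Pkm and Ldha were called higher in each, and Gpi1, Pfkl, Aldoa and Pgk1 in none. DESeq2 called 2315 genes beside 1386, and 6 enzymes with Tpi1 added, where 6.12% of all 22065 named genes were called higher. It called 9 of the other pathway genes in place of 5. With 1 library left out, the genes called ranged from 359 to 2501, the enzymes from 3 to 7, the other pathway genes from 0 to 10, and the enzymes' median log2 fold change from 0.41 to 0.63. The Aldoa log2 fold change, -0.08 with all libraries, ran from -0.11 to 0.011 with 1 left out, turning positive without control replicate 1. The differences in family share ranged from 9.85 to 13.9 percentage points for Hk2, from 10.1 to 15.3 for Pgam1, from 5.96 to 7.27 for Ldha, from 1.58 to 4.24 for Pfkl and from 1.04 to 2.03 for Aldoa. The lowest Pfkl and Aldoa values, over 1.5 times below those with all libraries (2.95 and 1.65), came without control replicate 4. Fbp1 missed the threshold with the block (edgeR, adjusted p = 0.0595) and Bhlhe40 with robust dispersions (edgeR, adjusted p = 0.0531). In these cases the cause was not tested.

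Replicate numbers do not mark shared animals in the labels. Deviations of same-numbered libraries correlated at -0.07 to 0.08, and 4 of 8 libraries correlated best with their own number, so no pairing was taken. With the number as a block, edgeR called 1652 genes and 6 enzymes, with Tpi1 added (adjusted p = 0.0315), and 6 of the other pathway genes, Eno1 among them. The lowest Pgk1 count, 116 reads, sets the counting limit among the 10.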
